A study of Homo sapiens with 3 samples.

Results

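The YBX1 peaks described here are those that the authors' annotation places on L2 elements, an old family of LINE retrotransposons. They were chosen from both deposited peak lists as the autosomal peaks whose annotated repeat has the class LINE and the family L2. The rule found 626 of 21546 autosomal peaks in replicate 1, out of 22874 peaks on all chromosomes, and 288 of 16208 in replicate 2, out of 17285. The choice used the annotation alone, not the strength of a peak or its presence in the other replicate.

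The series mapped YBX1 on chromatin by ChIP-seq in HEL cells, an established human erythroleukaemia line with a JAK2 mutation, grown without drug treatment. It asks where YBX1 sits in cells that carry mutated JAK2, and it held 2 libraries immunoprecipitated with an antibody against YBX1 and 1 input library of sheared chromatin from the same line. Nothing in the labels tells whether each replicate was its own culture, and both peak lists were called against the same input, so the lists are not fully independent. Since 2 libraries of 1 condition allow no test over samples, values of both lists are set side by side, and shares carry 95% Wilson intervals that cover counting error only.

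L2 elements stopped moving long ago, and the human genome keeps them mostly as short, mutated pieces that have lost the 5′ end of the original element. The subfamilies L2a, L2b and L2c are told apart by their sequence, and the files also use the plain name L2 with no letter. MIR elements are short retrotransposons whose 3′ end resembles that of L2 and which are thought to have moved with L2's help, and CR1 is another old LINE family related to L2. YBX1 belongs to the Y-box family, whose cold-shock domain contacts both DNA and RNA, and it is best known for acting on transcription and on the splicing and translation of mRNA.

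The ChIP libraries were of like depth, with 10010819 tags kept in replicate 1 and 9926271 in replicate 2, against 74780414 in the input. A tag is a mapped read, and 1 tag was kept per position. The authors' fold enrichment divides the tags at a peak's summit by the local background, which cannot fall below the genome-wide level. The caller's fragment shift was 20 bp with tags of 36 bp, so widths and folds describe the pile of tags and not the extent of binding. No genome sequence of the files' build, hg19, was used, so the number of L2 copies without a peak is not analysed here, and coordinates are given without their letters.

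L2 peaks made up a small share of the YBX1 peaks, larger in replicate 1 than in replicate 2. They were 2.91% (2.69 to 3.14) of autosomal peaks in replicate 1 and 1.78% (1.58 to 1.99) in replicate 2. Among LINE peaks the L2 share was 24.6% (23 to 26.3) in replicate 1 and 18.5% (16.7 to 20.5) in replicate 2. Among peaks outside tandem repeats, which held 10688 peaks of replicate 1 and 9325 of replicate 2, it was 5.77% (5.34 to 6.22) and 4.18% (3.74 to 4.68). On each of these scales the intervals of the 2 lists did not overlap.

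L2a was the most common name in both lists. It stood for 277 of 626 L2 peaks in replicate 1, or 44.2% (40.4 to 48.2), and 128 of 288 in replicate 2, or 44.4% (38.8 to 50.2). L2b stood for 107 peaks in replicate 1, or 17.1% (14.3 to 20.2), and 71 in replicate 2, or 24.7% (20.0 to 29.9). L2c stood for 158 peaks in replicate 1, or 25.2% (22.0 to 28.8), and 62 in replicate 2, or 21.5% (17.2 to 26.6). L2 with no letter stood for 84 peaks, or 13.4% (11 to 16.3), and 27 peaks, or 9.38% (6.52 to 13.3). The order of L2b and L2c therefore differed between the lists: L2c held more peaks than L2b in replicate 1 and fewer in replicate 2, and in replicate 2 their intervals overlapped.

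**Figure D1:**
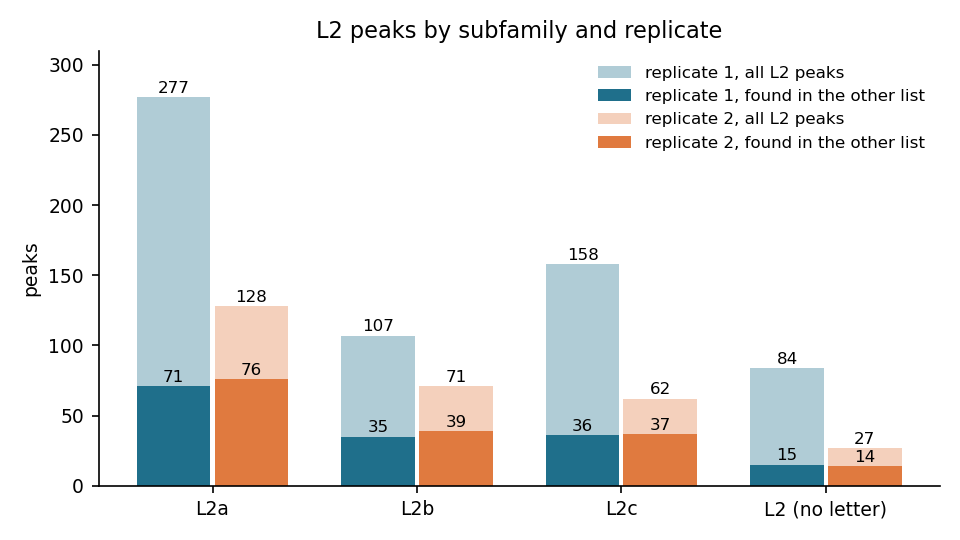
The bars count the L2 peaks of each subfamily (vertical axis, peaks) in replicate 1 (blue) and replicate 2 (orange), with the peaks found in the other list in the darker shade. L2a led in both lists with 277 and 128 peaks, while the numbers found in the other list were near each other, with 71 and 76 for L2a. An overlap counts a peak in each list, mostly under the same name, so these numbers are tied to each other.

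L2 peaks were weaker than the lists as a whole, which tandem repeats dominate, and close in their medians to the other peaks outside tandem repeats. The median L2 peak held 6 tags in replicate 1 and 6 in replicate 2, against 9 and 8 over all autosomal peaks and 7 and 6 over the other peaks outside tandem repeats. Peaks with 5 tags, the fewest in either list, were 38.0% of L2 peaks in replicate 1 and 40.6% in replicate 2, against 21.8% and 21.9% of all autosomal peaks and 31.9% and 34.3% of the others outside tandem repeats. The median fold enrichment of L2 peaks was 40.5 in replicate 1 and 40.8 in replicate 2, against 53.9 and 54.4 over all autosomal peaks and 43.8 and 40.8 over the others outside tandem repeats. Against the genome-wide background, folds come in steps of 13.5 in replicate 1 and 13.6 in replicate 2. On such steps lay 24.3% and 23.3% of L2 peaks and 36.1% and 34.4% of all autosomal peaks, so differences between the medians are coarse. Their median width was 59 bp in replicate 1 and 58 bp in replicate 2. MIR peaks lay close to these values, with medians of 6 and 6 tags and of 40.5 and 40.4 fold. The subfamilies did not stand apart from each other in strength, since every subfamily had a median of 6 tags in both lists and medians between 40.5 and 43.7 fold.

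A few L2 peaks were strong. In replicate 1, 26 of the 626 held 20 or more tags, and in replicate 2 it was 10 of the 288. Among all autosomal peaks it was 4003 of 21546 in replicate 1 and 2551 of 16208 in replicate 2. Among the other peaks outside tandem repeats it was 827 of 10232 and 505 of 6595. Strong peaks were thus rarer on L2 than in either set, in both lists. The tallest pile was an L2b peak at chr21:30237146-30237516 between N6AMT1, which encodes a methyltransferase, and LTN1, which encodes a ubiquitin ligase of stalled ribosomes. It held 113 tags with 94.2 fold enrichment in replicate 1, where another L2b peak with 44 tags lay beside it. In replicate 2 the neighbour was again named L2b and held 25 tags, and a tandem repeat peak overlapped the tallest pile. The highest fold was that of an L2a peak near OLFM3, 219 fold with 33 tags in replicate 1. The highest of replicate 2 was an L2a peak in an intron of PCDH9, 156 fold with 30 tags.

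By position, L2 peaks lay in introns more often than the other peaks outside tandem repeats, and seldom in promoters and exons. Introns held 45.2% (41.3 to 49.1) of L2 peaks in replicate 1 and 46.5% (40.9 to 52.3) in replicate 2, against 36.3% (35.4 to 37.2) and 34.2% (33.1 to 35.4) of the other peaks outside tandem repeats. Intergenic sequence held 51.9% and 51.4% of L2 peaks, against 57.4% and 58.8% of those others. Promoters held 17 L2 peaks in replicate 1 and 6 in replicate 2, which is 2.72% (1.70 to 4.31) and 2.08% (0.958 to 4.47), against 4.38% and 4.84% of the others. A single L2 peak lay in an exon in replicate 1, and in replicate 2 it was 0 of 288, which allows a share of up to 1.04% by a limit of 3 counts and of up to 1.32% by the Wilson interval. The share of the genome's L2 copies that lies in introns was not analysed here.

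Few L2 peaks of replicate 1 were found in replicate 2. A peak counts as found when a peak of the other list overlaps it by at least 1 bp. In replicate 1, 157 of 626 L2 peaks were found in the other list, or 25.1% (21.8 to 28.6), against 53.8% of all autosomal peaks. In replicate 2, 166 of 288 were found, or 57.6% (51.9 to 63.2), against 77.5% of all autosomal peaks. The L2 share was below the share over all peaks in both lists, with intervals that do not reach it.

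Other classes of repeat lay above, near or below L2, depending on the class and the list. L1 peaks, from the LINE family that is still active in humans, were found in 43.6% (41.4 to 45.9) of cases in replicate 1 and 72.8% (70.3 to 75.2) in replicate 2. Tandem repeat peaks were found in 71.8% and 91.3% of cases. MIR peaks had shares within the L2 intervals, at 23.2% (18.6 to 28.4) of 285 and 56.9% (48.6 to 64.9) of 137. CR1 peaks were few, with 5 of 36 found in replicate 1 and 5 of 14 in replicate 2. Alu peaks were found in 35.1% and 47.7% of cases, LTR peaks in 38.7% and 61.2%, and DNA transposon peaks in 35.7% and 57.5%. The other peaks outside tandem repeats had 36.7% in replicate 1, above the L2 interval, and 58.9% in replicate 2, within it.

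**Figure D2:**
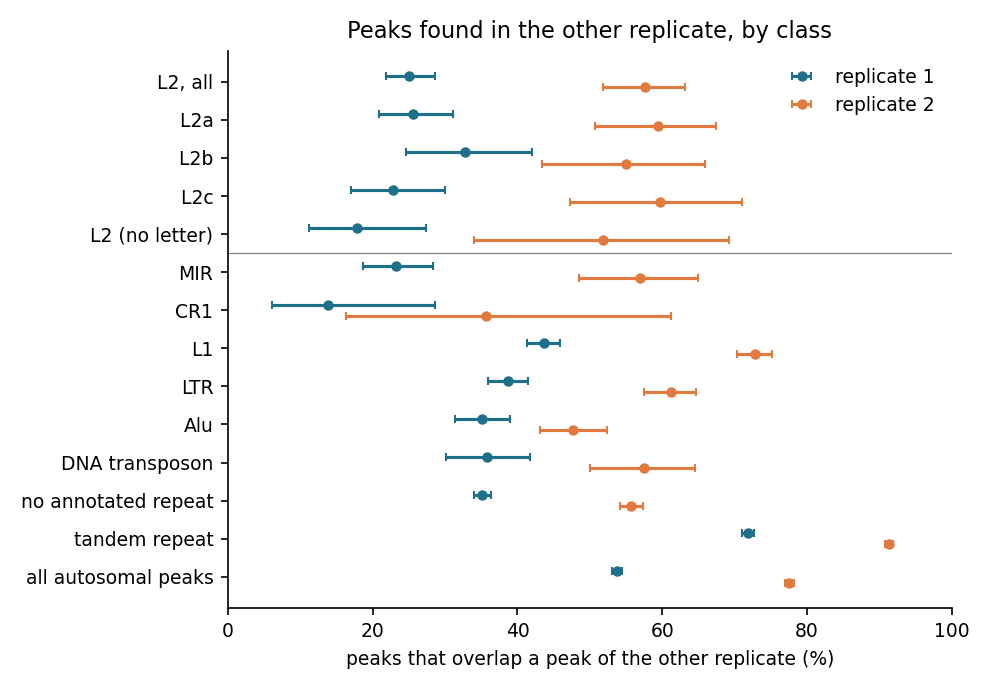
Points give the percent of peaks of each class that overlap a peak of the other replicate (horizontal axis), with 95% Wilson intervals as bars, for replicate 1 (blue) and replicate 2 (orange). L2 and its subfamilies lie above the line, and their 25.1% and 57.6% stand near MIR and below L1, tandem repeats and all autosomal peaks.

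The subfamilies did not differ beyond their intervals in this respect. L2a peaks were found in 25.6% (20.8 to 31.1) and 59.4% (50.7 to 67.5) of cases in replicates 1 and 2. L2b peaks were found in 32.7% (24.6 to 42.1) and 54.9% (43.4 to 66.0), and L2c peaks in 22.8% (16.9 to 29.9) and 59.7% (47.3 to 71.0). L2 with no letter had the lowest shares, 17.9% (11.1 to 27.4) and 51.9% (34.0 to 69.3), and its intervals overlapped those of each named subfamily.

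Whether an L2 peak was found went with its tag count. Of the L2 peaks with 5 tags, 26 of 238 in replicate 1 were found, or 10.9% (7.56 to 15.5), and 43 of 117 in replicate 2, or 36.8% (28.6 to 45.8). Of those with 10 to 14 tags it was 32 of 71 in replicate 1 and 25 of 31 in replicate 2. Of those with 20 or more tags it was 24 of 26 in replicate 1 and 10 of 10 in replicate 2. Other peaks showed the same rise. Found were 18.8% and 49.4% at 5 tags, 68.2% and 91.3% at 10 to 14, and 96.7% and 97.4% at 20 or more. Outside tandem repeats, other peaks had 15.2% and 37.8%, 57.1% and 79.1%, and 92.5% and 89.5% at these tag counts. The 2 strong L2 peaks of replicate 1 with no partner were an L2c peak in an intron of PRLR, the prolactin receptor gene, with 21 tags at chr5:35113673-35113813, and an intergenic L2a peak with 27 tags at chr6:145593815-145594013.

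At like tag counts the distance to other peaks shrank, and what remained depended on the peaks it was set against. The comparison share is the one that other peaks of the same list would show if they had the tag counts of the L2 peaks. Against all other peaks, the L2 shares of 25.1% and 57.6% stood beside 36.6% in replicate 1 and 67.1% in replicate 2. Against other peaks outside tandem repeats, they stood beside 31.0% and 55.1%, so that L2 lay lower in replicate 1 and higher in replicate 2. Against L1 peaks they stood beside 33.5% and 66.8%, and against MIR peaks beside 22.9% and 57.0%.

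Where an L2 peak had a partner, the partner mostly carried the same L2 name. In replicate 1 this was so for 118 of 157 L2 peaks, or 75.2% (67.9 to 81.3), and in replicate 2 for 117 of 166, or 70.5% (63.1 to 76.9). For 23 L2 peaks of replicate 1 and 32 of replicate 2, the partner was named a tandem repeat and not L2. For 15 and 13 the partner had no annotated repeat. A different L2 name with no partner of the same name was met in 0 cases in replicate 1 and 1 in replicate 2. The element named at overlapping peaks can therefore change between replicates. It did so between L2 and a tandem repeat more often than between L2 subfamilies. Since 1 bp of overlap is enough, some pairs set 1 peak of a list against 2 of the other. At chr22:27720871-27721374, a single TGGA repeat peak of replicate 1 overlapped a TGGA repeat peak and an L2b peak of replicate 2. Tandem repeat peaks were also far more numerous, with 10688 and 9325 against 626 and 288 on L2.

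About as many L2 peaks sat beside a tandem repeat peak as far from one. In replicate 1, 314 of 626 L2 peaks had a tandem repeat peak of the same list within 500 bp, or 50.2% (46.3 to 54.1), against 49.2% of all autosomal peaks outside tandem repeats. In replicate 2 it was 162 of 288, or 56.2% (50.5 to 61.8), against 45.0% of those peaks. The L2 share is near the background in replicate 1 and above it in replicate 2. MIR peaks had 63.9% and 55.5%, and L1 peaks had 54.6% and 52.0%. The limit of 500 bp was chosen after the gaps had been seen.

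The gaps fell into a near group and a far group with few peaks between them. In replicate 1, 304 L2 peaks lay under 200 bp from the nearest tandem repeat peak, 10 at 200 to 499 bp, 1 at 500 to 999 bp, 9 at 1000 to 4999 bp and 302 farther away. In replicate 2 the counts were 156, 6, 0, 3 and 123. Among the near peaks the median gap was 73 bp in replicate 1 and 77.5 bp in replicate 2, about the width of a peak.

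**Figure D3:**
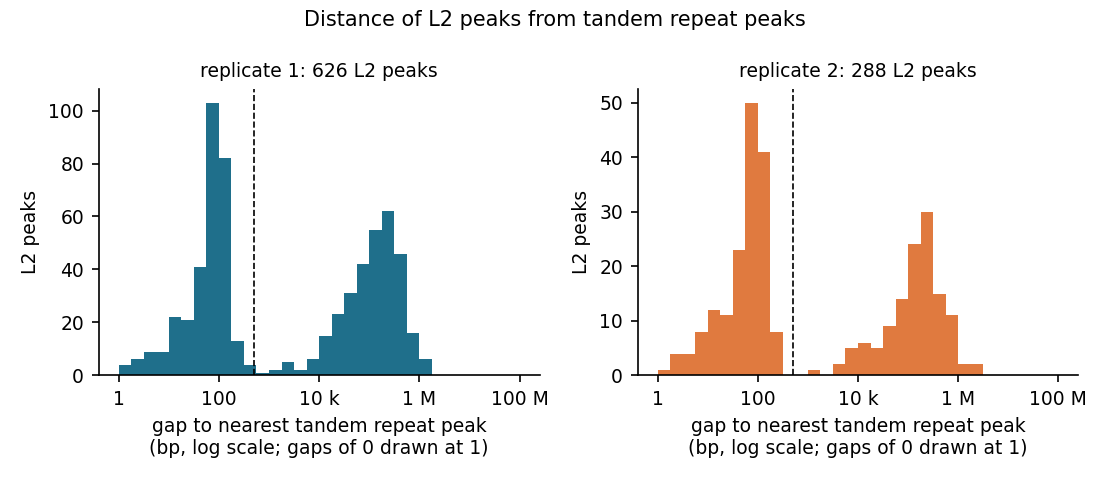
Histograms of the gap from each L2 peak to the nearest tandem repeat peak of the same list (horizontal axis, bp, log scale; vertical axis, L2 peaks), for replicate 1 on the left and replicate 2 on the right, with the dashed line at 500 bp. Near peaks, 314 and 162, are separated from far ones by an almost empty stretch.

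The L2 peak was nearly always the smaller of the pair. Near L2 peaks had a median of 7 tags in replicate 1 and 6 in replicate 2, against 22.5 and 21.5 tags in the tandem repeat peaks beside them. The L2 peak had fewer tags in 287 of 314 pairs in replicate 1 and in 147 of 162 in replicate 2. It had the lower fold in 280 and 148 of these pairs. The tandem repeat peaks beside L2 were themselves taller than tandem repeat peaks at large, whose medians were 13 tags in replicate 1 and 11 in replicate 2. The part of these neighbours in the tags of the L2 peaks was not tested. Other peaks outside tandem repeats that lay within 500 bp of a tandem repeat peak also had medians of 7 and 6 tags. Their pairs were not counted, so the order of size is not read as particular to L2.

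The repeats beside L2 were almost all of the 2 tetranucleotide families that make up most tandem repeat peaks. Counted over rotations and both strands, the ATCC family (named TCCA or TGGA) stood beside 170 of the 314 near L2 peaks of replicate 1 and the AGAT family (named TAGA or TCTA) beside 136. In replicate 2 the order turned, with 65 of 162 for ATCC and 89 for AGAT. Among all tandem repeat peaks, ATCC had 40.5% in replicate 1 and 37.7% in replicate 2, and AGAT had 43.8% and 46.6%.

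The share near a tandem repeat peak was lowest for L2 with no letter in both lists. It was near in 27 of 84 cases in replicate 1, or 32.1% (23.1 to 42.7), and in 10 of 27 in replicate 2, or 37.0% (21.5 to 55.8). L2a was near in 50.2% (44.3 to 56.0) and 60.9% (52.3 to 68.9) of cases, L2b in 51.4% and 54.9%, and L2c in 58.9% and 56.5%. The interval for the unlettered name lay below that of L2a in replicate 1, and the intervals overlapped in replicate 2.

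L2 peaks near a tandem repeat were found in the other list more often than those apart from one. The shares were 29.9% (25.1 to 35.2) near and 20.2% (16.1 to 25) apart in replicate 1, and 66.7% (59.1 to 73.5) near and 46.0% (37.6 to 54.7) apart in replicate 2. At the tag counts of the near peaks, the peaks apart would have had 24.1% in replicate 1 and 48.5% in replicate 2. Among other peaks outside tandem repeats, near peaks were found in 37.9% and 69.4% of cases and peaks apart in 35.5% and 50.5%. L2 peaks with no peak of any kind within 500 bp, 246 in replicate 1 and 97 in replicate 2, were found in 12.6% (9.02 to 17.3) and 36.1% (27.2 to 46.0) of cases.

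Peaks that overlapped between the lists and held at least 1 L2 peak were merged into 192 shared L2 regions. An L2 peak stood in both lists in 113 of them, in replicate 1 alone in 36 and in replicate 2 alone in 43. A tandem repeat peak was part of the region in 75, and 149 were near or with one, which left 43 apart. By name, 86 regions were L2a, 44 L2b, 45 L2c and 17 L2 with no letter. By position, 105 were intergenic, 83 in introns, 4 at promoters and 0 in exons.

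Over the 113 regions with L2 in both lists, the folds of the L2 peaks moved together only loosely. The correlation of log2 fold between the lists was 0.57 (Pearson) and 0.57 (Spearman), given as a description because the points share both libraries and the input. It was 0.71 over the 39 regions apart from tandem repeats and 0.48 over the 74 near them. Replicate 1 had the higher fold in 72 regions and replicate 2 in 41. The medians were 46.7 fold in replicate 1 and 40.8 fold in replicate 2.

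**Figure D4:**
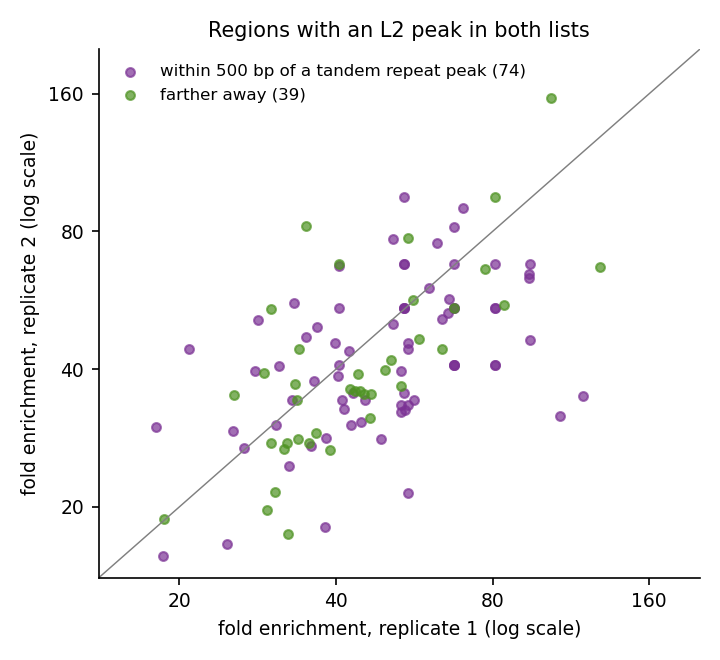
Each point is a region with an L2 peak in both lists, placed by the fold enrichment of its L2 peak in replicate 1 (horizontal, log scale) and replicate 2 (vertical, log scale), purple within 500 bp of a tandem repeat peak (74) and green farther away (39). The line marks equal folds; 72 points lie below it, where replicate 1 is higher, and 41 above it.

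All of the 12 strongest shared regions contained a tandem repeat peak. The rank is by the lower of the regions' highest folds in the 2 lists, whichever peak has them, and since tandem repeat peaks have the higher folds (medians of 68.5 and 68.0) it favours regions that hold one. Ranked instead by the L2 peaks' own folds, over the 113 regions with L2 in both lists, 4 of the first 12 held a tandem repeat peak, 8 were near or with one and 4 were apart. In 9 of the 12 strongest regions by highest fold, a tandem repeat peak was the strongest in both lists, and an L2 peak stood in both lists in 4. The first was an intergenic L2c region at chr13:73116767-73117122. Its strongest peak, on a TAGA repeat, had 196 fold in replicate 1 and 204 fold in replicate 2, while its L2c peaks had 80.9 fold with 10 tags and 68.0 fold with 7 tags. The second, at chr22:27720871-27721374, had a TGGA repeat with 202 and 177 fold and an L2b peak in replicate 2 alone, with 68.0 fold and 12 tags.

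The region near OLFM3, a gene for a secreted olfactomedin protein, shows the change of name most plainly. At chr1:102176076-102176211 each list had a single peak. Replicate 1 named it L2a, with 219 fold and 33 tags, and replicate 2 named it a TCTA repeat, with 156 fold and 26 tags. On either side lay a weak shared region with an L2a peak. The one at chr1:102175990-102176040 had 65.8 fold in replicate 1 and 53.0 fold in replicate 2, with 5 tags in each. The one at chr1:102176275-102176387 was L2a in replicate 1, with 34.0 fold, and had no annotated repeat in replicate 2, with 37.7 fold.

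Of the remaining regions among the 12, SGCZ (a sarcoglycan gene) and PEPD (prolidase) held theirs in introns. At SGCZ, chr8:14560052-14560652, a TAGA repeat had 229 and 150 fold and L2a peaks stood in replicate 2 alone. At PEPD, chr19:33913181-33914062, L2a peaks of 39.8 and 45.7 fold, with 8 tags in each list, sat beside peaks of 166 and 129 fold. The region named for PROX1, a homeobox transcription factor gene, at chr1:214231054-214231416 had TAGA peaks of 145 and 157 fold and an L2b peak of 43.7 fold in replicate 2 alone. The region named for GRHL3, a grainyhead transcription factor gene, at chr1:24592325-24592972 had TGGA peaks of 154 and 145 fold and an L2c peak of 59.9 fold with 26 tags in replicate 2 alone. In each of these the L2 peak was not the strongest of its region.

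Among regions named L2 with no letter, the strongest lay in an intron of RPTOR, which encodes a subunit of the growth-regulating complex mTORC1. At chr17:78674169-78674755 its TGG repeat had 204 fold in replicate 1 and 129 fold in replicate 2, and the L2 peak, in replicate 2 alone, had 55.4 fold with 7 tags. The next, near SPR and EMX1 at chr2:73139251-73139383, again changed its name. It was L2 with 108 fold and 29 tags in replicate 1 and a TAGA repeat with 113 fold and 18 tags in replicate 2. The third lay in an intron of R3HDM1, with an L2 peak of 70.2 fold and 21 tags in replicate 2 alone. The third strongest L2c region lay in an intron of MACROD1 and FLRT1, where TGGA peaks had 134 and 118 fold and the L2c peak of replicate 2 had 41.9 fold.

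The 4 shared promoter regions were all near a tandem repeat peak. At MBP, the gene of myelin basic protein, TCCA peaks at chr18:74730409-74731107 had 175 fold in replicate 1 and 136 fold in replicate 2, and an L2a peak of replicate 2 had 81.6 fold with 17 tags. Replicate 1 had an L2a peak there too, with 67.4 fold and 8 tags at chr18:74731110-74731173, which began just past the end of the replicate 2 peak and so was not counted as found. At OR6X1, an olfactory receptor gene, both lists named L2c, with 48.8 fold and 32 tags in replicate 1 and 28.2 fold and 5 tags in replicate 2. At CASP14, a caspase gene of skin differentiation, L2c stood in replicate 1 alone with 30.3 fold and 18 tags. At EVC2, a gene of primary cilia, L2c stood in replicate 2 alone with 25.6 fold and 6 tags.

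Of the regions apart from tandem repeat peaks, the strongest was in an intron of PCDH9, a protocadherin gene for cell adhesion, and it also came first when all regions were ranked by the L2 peaks' own folds. These regions were picked out after their values had been seen. At chr13:67554124-67554260, L2a peaks had 103 fold with 24 tags in replicate 1 and 156 fold with 30 tags in replicate 2, and the nearest tandem repeat peak lay 84772 bp away in replicate 1 and 84792 bp away in replicate 2. An L2a region in an intron of TMEM189 at chr20:48742025-48742131 had 80.9 fold with 13 tags and 95.2 fold with 17 tags. An intergenic L2a region at chr18:58167606-58167681 had 129 fold with 18 tags and 66.9 fold with 9 tags. The region named L2 with no letter at chr12:53373313-53373388, between genes that include KRT8 and KRT18, had 77.3 fold with 11 tags and 66.3 fold with 7 tags. In these 4 regions the L2 name stood in both lists.

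The densest cluster of L2 peaks lay in an intron of JAM3, which encodes a junctional adhesion molecule. L2 peaks at most 1000 bp apart formed 570 clusters in replicate 1 and 256 in replicate 2, of which 523 and 236 were single peaks. At JAM3 there were 6 L2 peaks in replicate 1, at chr11:133962255-133964541, and 10 in replicate 2, at chr11:133962220-133964164. All were L2b or L2c, and the tandem repeat peak nearest to the tallest of replicate 1 lay 213626 bp away. They formed 8 shared regions, where no other gene had more than 3. In those at chr11:133962421-133962872, chr11:133962886-133962973, chr11:133963326-133963505 and chr11:133963675-133963863, L2 was named in 1 list alone. The overlapping peak of the other list there had no annotated repeat. In the rest, both lists named L2.

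In replicate 1 the JAM3 peaks held 5, 8, 11, 20, 66 and 6 tags in order along the chromosome, with folds of 25.5, 43.4, 72.9, 39.0, 84.0 and 28.9. In replicate 2 they held 10, 5, 14, 5, 17, 7, 14, 5, 8 and 7 tags, with folds from 24.5 to 55.1. The first 5 of replicate 1 were found in the other list, and so were all 10 of replicate 2. The pile of 66 tags at chr11:133963893-133964309 in replicate 1 overlapped 5 separate peaks in replicate 2. Peaks with no annotated repeat lay between the L2 peaks in both lists and were of like height, the largest with 69 tags and 63.6 fold in replicate 1 and 44 tags and 68.5 fold in replicate 2.

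**Figure D5:**
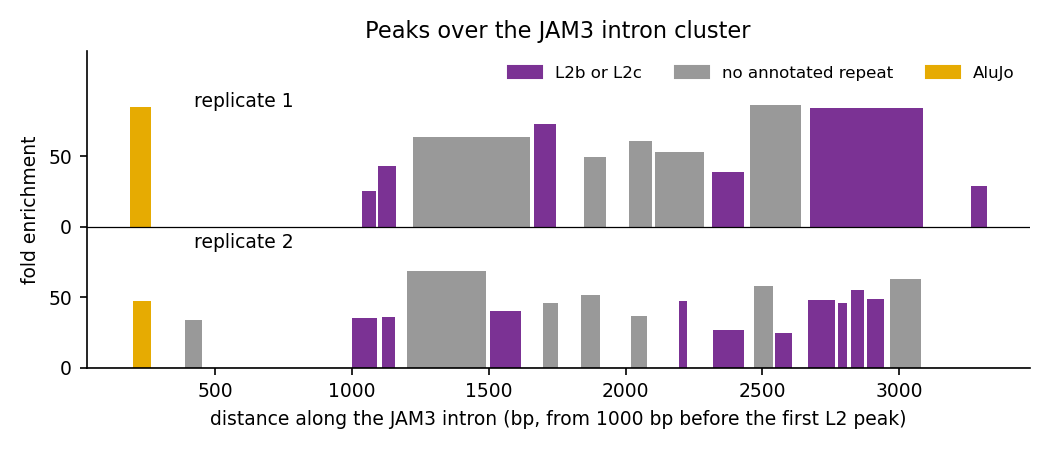
Peaks along the JAM3 intron (horizontal axis, bp from 1000 bp before the first L2 peak) with their fold enrichment (vertical axis), replicate 1 above and replicate 2 below. L2b and L2c peaks (purple, 6 and 10) alternate with peaks that have no annotated repeat (grey) over about the same stretch in both replicates, after an AluJo peak (yellow).

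Of the other genes with several shared L2 regions, IGSF21, a cell adhesion gene of the immunoglobulin superfamily, and OLFM3 had 3 each. Those of IGSF21 were all L2a and near tandem repeat peaks. The strongest, at chr1:18641838-18642449, had L2a peaks of 53.4 fold in replicate 1 and 39.6 fold in replicate 2 beside a TGGA repeat of 120 and 80.5 fold. CAMTA1, a transcription activator gene, had an L2a region apart from tandem repeats with 33.4 and 37.2 fold, and an L2b region near one with 41.5 and 32.8 fold. GRIK4, a kainate receptor subunit gene, had 2 L2c regions apart from tandem repeats, with 46.6 and 31.3 fold in the first and 30.1 and 27.6 fold in the second. ITPR2, which encodes a calcium channel of the endoplasmic reticulum, had 2 L2a regions near a tandem repeat, and the potassium channel genes KCNJ2 and KCNJ16 shared 2 L2a regions. GLIS3 and GSDMC also had 2 each, all near tandem repeat peaks.

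The L2 peaks were spread unevenly over chromosomes. Chromosome 1 held 116 L2 peaks in replicate 1, or 18.5% (15.7 to 21.8), and 57 in replicate 2, or 19.8% (15.6 to 24.8), against 11.7% and 13.3% of the other peaks outside tandem repeats and 10.1% and 10.6% of all autosomal peaks. Chromosome 11 held 56, or 8.95% (6.95 to 11.4), and 40, or 13.9% (10.4 to 18.4), against 5.57% and 5.17% of the others outside tandem repeats. Without the JAM3 cluster, which lies there with 6 and 10 of them, it held 50, or 8.06% (6.17 to 10.5), and 30, or 10.8% (7.66 to 15). MIR peaks had 9.47% and 12.4% on chromosome 11. The end of chromosome 11 past position 110000000, a limit set after the positions had been seen, held 34 of its 56 L2 peaks in replicate 1, or 60.7% (47.6 to 72.4), and 28 of 40 in replicate 2, or 70.0% (54.6 to 81.9), against 48.1% and 52.8% of its other peaks outside tandem repeats and 20.4% and 24.3% of its tandem repeat peaks. Without the JAM3 cluster it held 28 of 50 and 18 of 30, or 56.0% (42.3 to 68.8) and 60% (42.3 to 75.4), intervals that reach the other peaks outside tandem repeats, as the one with the cluster does in replicate 1. Chromosome 7 held 15 and 3 L2 peaks, or 2.40% (1.46 to 3.92) and 1.04% (0.355 to 3.02), against 3.43% and 3.35% of the other peaks outside tandem repeats, 4.66% and 4.49% of all peaks and 1.4% and 1.46% of MIR peaks. The L2 interval holds the share of the others outside tandem repeats in replicate 1 and lies below it in replicate 2. The copy number of each chromosome in HEL cells and its stock of L2 copies were not analysed here.

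The authors' annotation named 725 genes for the L2 peaks of replicate 1 and 317 for those of replicate 2, of which 171 were named in both. Together these were 871 of the 10447 genes named for any autosomal peak, or 8.34%, and 243, or 2.33%, were named for a shared L2 region. The annotation often names several neighbours of an intergenic peak. How many of all named genes were named in both lists was not counted, so nothing is read from the 171.

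Of 12 haematopoietic transcription factor genes named for any peak, 5 were named for an L2 peak, or 41.7% against 8.34% of all named genes, and 2 for a shared region, or 16.7% against 2.33%. The 2 were RUNX1, a master regulator of blood stem cells, and BCL11A, a repressor of fetal globin. Near RUNX1, an L2c peak of replicate 1 had 42.1 fold and 18 tags beside TCCA peaks of 80.9 fold in replicate 1 and 48.9 fold in replicate 2. Near BCL11A, an L2c peak of replicate 1 had 53.9 fold and 11 tags, and the overlapping peak of replicate 2 was named MER20, a DNA transposon, with 34.6 fold and 9 tags. FLI1, ERG and MYB each had an L2 peak of 5 or 6 tags in 1 list. RUNX1 had a further L2b peak in an intron in replicate 2, with 24.7 fold and 6 tags. At no place near these 5 genes did both lists name L2. The list holds few genes, and no correction for gene length was made. Neuronal genes, listed as genes of another cell type, reached 33.3% for an L2 peak and 4.17% for a shared region. Nothing particular to blood genes is therefore read from these counts.

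The other blood and signalling lists are given beside the 8.34% of all named genes that were named for an L2 peak and hold few genes each, so nothing particular to them is read from their counts. Of 12 erythroid genes and of 12 genes of MAPK-ERK and MNK signalling named for any peak, 0 were named for an L2 peak. Among megakaryocyte and platelet genes, VWF, which encodes von Willebrand factor, had an L2 peak of 6 tags in replicate 1. Of 14 JAK-STAT genes 1, or 7.14%, had an L2 peak: SH2B3, an inhibitor of JAK2 signalling, with 5 tags in replicate 1. Of 13 splicing factor genes 2, or 15.4%, had one, HNRNPC and RBFOX1, both in replicate 1. Of 3 Y-box and cold-shock genes, 1, or 33.3%, had one, CSDC2 in replicate 2. None of these was found in the other list.

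Neuronal adhesion and synapse genes, listed as genes of another cell type, had L2 peaks in 8 of 24 cases, or 33.3%, against 8.34% of all named genes, and a shared L2 region in 1, or 4.17%, against 2.33%. Many of them are long genes, and no correction for length was made. The 8 were CNTNAP2, CSMD1, CSMD3, DAB1, PTPRD, GRIN2A, ELAVL4 and KCNIP4. PTPRD, a receptor phosphatase gene, had 4 L2 peaks in replicate 1 and 1 in replicate 2, with 5 to 9 tags and 18.7 to 23.7 fold, at 5 separate places. The shared one was at CSMD1, where an L2a peak of replicate 2 at chr8:3509804-3509906 had 67.9 fold and 17 tags and lay near a tandem repeat peak. Replicate 1 had no L2 peak in that region, and its strongest peak there was named THE1B, with 67.4 fold and 18 tags. The other L2 peaks at these genes were not found in the other list and held at most 9 tags. At no place near these 8 genes did both lists name L2.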

How the data were processed

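YBX1 was immunoprecipitated from HEL chromatin in 2 replicates, with 1 input library. Tools listed in the submitters' processing notes are MACS 1.4, Bowtie2, Trimmomatic 0.36 and bcl2fastq 02.14.01.07, and the build is hg19. Per the file headers, MACS 1.4.2 called the peaks of each replicate on its own against the shared input with a p-value cutoff of 1e-05. The authors then filtered and annotated the lists, and the filter's rule was not given in the sources used here. The header of the replicate 2 list names an alignment with another number than the label, and the label was followed.

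The deposited lists give each peak's count of tags, a score of -10 times the log10 of its p-value, its fold enrichment as the authors' ratio to the local background, and a false discovery rate in percent, which was 0 throughout. The unit of the score was read from the values. Positions, genes and repeat names are the authors' annotation, with coordinates counted from 1.

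From these, L2 peaks were selected and overlaps, gaps and merged regions computed with Python 3.11.15, pandas 2.3.3, NumPy 2.4.6 and SciPy 1.17.1; overlaps were also tested on simulated data. Intervals are 95% Wilson intervals. Rotations and both strands of a tandem repeat unit were counted as one family. Members and gene lists were chosen with earlier results of these data known. Regions named in the text were taken from the 12 strongest shared L2 regions by the lower of both folds and the 3 strongest of each subfamily. Not every region of these groups is described. Further ones are those at promoters or exons, genes with several shared L2 regions and genes of the 8 lists. Regions outside this rule are said to be chosen after their values were seen or belong to the strongest and list peaks. Of 871 symbols named for L2 peaks, 787 were current and 54 matched older names in a RefSeq table of GRCh38.p14, used for names only. The alternatives tried were a minimum score or tag count, stricter overlap, chromosome X, local input, other matching, and leaving out each replicate or the peaks near tandem repeats. The count for the megakaryocyte and platelet list is not reported here. Matching against peaks outside tandem repeats, the settings that concern nearness to tandem repeats, the ranking by the L2 peaks' own folds and the values without the JAM3 cluster were chosen after seeing the data.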

Additional observations from a re-analysis of the deposited data

Results flagged for a closer look

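L2 peaks outside the autosomes were left out of every comparison above, and 4 were present in replicate 2: 2 among its 533 peaks on chromosome X and 2 among its 43 peaks on alternative contigs. Replicate 1 had 0 among 704 peaks on chromosome X and 0 among 39 on alternative contigs. The 4 peaks draw attention because they lie in sequence that the comparisons do not use.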

How the results depend on the processing

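Values here are means over both replicates. The main ones are an L2 share of 2.34%, 41.4% found in the other list, 40.6 fold, 44.3% L2a, 20.9% L2b, 23.4% L2c, 11.4% without a letter, -10.5 points against other peaks at like tag counts, 53.2% near a tandem repeat and 192 shared regions. With a score of at least 100 (a p-value of 1e-10), the L2 share was 1.11%, the fold 58.5, L2a 47.1%, L2c 20.7%, the matched difference -15.0 points, nearness 59.4% and shared regions 72. With at least 10 tags they were 0.984%, 54.2 fold, 44.1% L2a, 8.34% without a letter, nearness 60.2% and 61 regions. Without the L2 peaks near a tandem repeat, the share was 1.13%, the fold 40.3, L2a 42.0%, no letter 15.9% and the matched difference -16.6 points. The matched difference was -14.2 points with summits within 50 bp and -1.65 points against peaks outside tandem repeats, where it was -5.89 in replicate 1 and 2.59 in replicate 2. A partner also named L2 left 112 regions, local input above the genome-wide level gave 37.5 fold, and tandem repeat peaks of either list gave nearness 59.6%. The cause of these moves was not tested. Of 53 alternative values that keep both replicates, the other 30 moved by less than the spread between replicates or, for counts, less than 1.5 times. This rule does not rank stability, because the spread was wide for the share found and narrow for L2a. The share found, always among the 30, was 28.8% with summits within 50 bp and 29.9% with a partner also named L2. It was 34.2% with 50% overlap of the shorter peak and 33.1% without L2 peaks near a tandem repeat. It was 51% with a score of at least 100 and 56% with at least 10 tags. Shared regions fell to 135 and 160 with the summit and overlap rules. Leaving out a replicate gives the other's value, which is no check of stability: 1.78 to 2.91% for the share, 25.1 to 57.6% found, 40.5 to 40.8 fold, 44.2 to 44.4% L2a, 17.1 to 24.7% L2b, 21.5 to 25.2% L2c, 9.38 to 13.4% without a letter, -11.6 to -9.45 points and 50.2 to 56.2% near; shared regions need both. No paired analysis was possible because the input has no replicates and no result comes from a test between groups.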
